A study of Mus musculus with 6 samples.

Results

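The transcripts examined here are those of 49 genes of DNA replication and mitosis, chosen by name from a list of 24 replication genes and 25 mitosis genes and read on an Affymetrix array in cultured mouse podocytes, the epithelial cells of the kidney glomerulus. For each gene the probe set carrying only that gene's symbol was used. This gave 47 of the 49 genes among 30702 genes measured, with 23 replication and 24 mitosis genes. Mcm7 was left out because its probe set also carries the symbols of other genes, and Ccnb1 had no probe set under its symbol. The 6 arrays came from 2 conditionally immortalized lines, a Wildtype line and an NCK1/2 knockout line that lacks the adaptor genes Nck1 and Nck2. Each line gave 3 arrays, described as independent replicates, and RNA of all of them was taken on day 10 of differentiation, with type I collagen as the substrate. One line stood for each genotype, so a difference between the genotypes and one between the lines cannot be told apart, and the p-values measure only the spread between these arrays. Growing cells of the lines were not analysed here, so the levels below have no proliferating culture beside them.

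A conditionally immortalized line divides under a permissive condition and is expected to leave the cell cycle when that condition is withdrawn, as podocytes in the adult glomerulus have done. Entry into S phase is driven by cyclin E and E2F transcription factors, which raise the genes for origin licensing, nucleotide supply and the replication fork. Mitotic genes rise later, through the B-Myb, MuvB and FoxM1 factors, and act in chromosome condensation, spindle assembly, kinetochore attachment and cytokinesis. In resting cells the DREAM repressor complex, which contains the pocket proteins p107 or p130, holds both groups down. In RNA from a whole culture, fewer cycling cells and less RNA per cycling cell cannot be told apart.

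The values are log2 intensities after robust multi-array average (RMA) processing by the authors, so a difference of 1 is 2-fold. Array medians over all genes lay from 7.08 (wildtype replicate 2) to 7.22 (wildtype replicate 1), and those of the knockout arrays from 7.15 to 7.16. Of 7 podocyte markers 5 were measured and none passed the test between lines, while Nphs1, Wt1 and Ptpro had means no higher than the brightest of the array's 23 background probe sets (7.78), called the background range below, in both lines and Synpo and Podxl lay above. All 5 endothelial markers and 4 of 5 leukocyte markers lay within that range in both lines. The fifth leukocyte marker, the macrophage glycoprotein gene Cd68, rose in the knockout by 0.57 (limma adjusted p = 0.0471), without overlap. Of 5 measured fibroblast and mesangial markers 3 rose in the knockout, the mean of the list moving from 7.78 to 7.87 in wildtype arrays to 9.44 to 9.54 in knockout arrays. Of 5 tubular markers 4 fell, the mean of the list moving from 10.67 to 10.73 down to 9.44 to 9.56. The mean of the podocyte list was 7.37 to 7.45 in wildtype arrays and 7.40 to 7.43 in knockout arrays. Single log2 differences ran from 0.03 to 3.03 in the fibroblast and mesangial list and from -3.50 to 0.11 in the tubular list. The part of these marker shifts in the results below was not tested.

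Promoter motif matches were counted in both sets of genes. RefSeq promoter windows of GRCm38.p6, 250 bases before to 50 bases after the start, were at hand for 40 of the 49 genes, giving 43 windows. Searched on both strands were an E2F-type motif (TTTNNCGC), a CHR-type motif (the cell cycle genes homology region bound by MuvB, TTTGAA or TTTAAA, the latter being its own reverse complement) and the CCAAT box bound by NF-Y. The E2F-type motif was found in 8 of 21 replication windows (38.1%) and in 1 of 22 mitosis windows (4.55%), against 5.17% of all 32851 windows in the table. The CHR-type motif was found in 20 of 22 mitosis windows (90.9%) and 6 of 21 replication windows (28.6%), against 27.6% of all windows. CCAAT was found in 90.9% of mitosis and 71.4% of replication windows, against 37.4% of all. Median GC content was 59.7% in mitosis, 57.7% in replication and 52.7% in all windows.

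**Figure D1:**
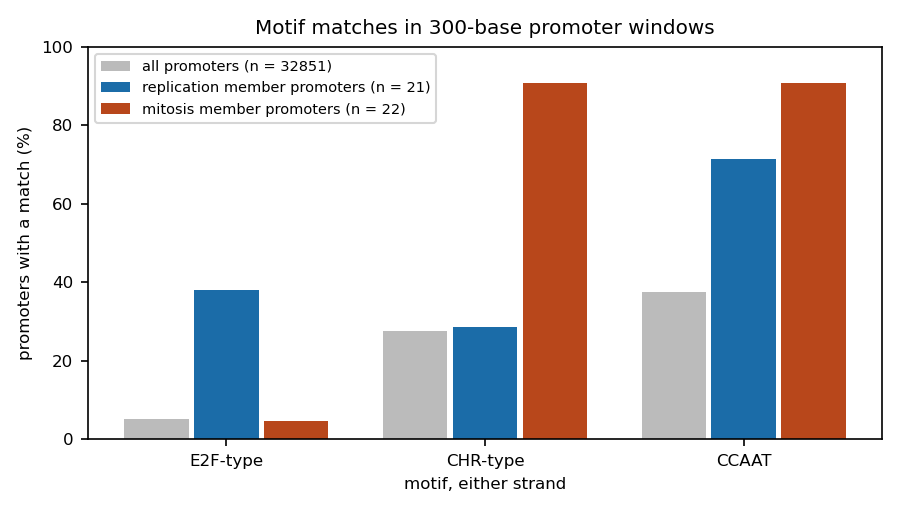
Share of 300-base promoter windows (vertical axis, percent) that hold each motif on either strand, for all windows, replication genes and mitosis genes. The CHR-type bar reaches 90.9% for mitosis genes and 28.6% for replication genes, and the E2F-type bar 4.55% and 38.1%.

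The promoters shown are those of the 5 genes with the largest log2 difference between lines among those with a motif match that could be shown, together with Mcm2, added after its values were seen to show a replication gene. They run from 190 bases before to 30 bases after the start, 5′ to 3′ on the gene's strand, in GRCm38.p6. Capitals mark CHR-type matches (TTTGAA or TTTAAA, and the reverse complement TTCAAA) and CCAAT matches (CCAAT or ATTGG), none of which overlap. Cenpe lies at chr3:135212373-135212592 on the plus strand, Top2a at chr11:99024160-99024379 on the minus strand, Cenpf at chr1:189688057-189688276 on the minus strand, Ttk at chr9:83834499-83834718 on the plus strand, Hmmr at chr11:40733408-40733627 on the minus strand and Mcm2 at chr6:88898751-88898970 on the minus strand.
Cenpe: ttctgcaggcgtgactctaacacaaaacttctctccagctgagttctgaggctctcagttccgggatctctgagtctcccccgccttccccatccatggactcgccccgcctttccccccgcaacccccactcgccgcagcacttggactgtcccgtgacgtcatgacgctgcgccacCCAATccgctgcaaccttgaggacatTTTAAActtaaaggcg
Top2a: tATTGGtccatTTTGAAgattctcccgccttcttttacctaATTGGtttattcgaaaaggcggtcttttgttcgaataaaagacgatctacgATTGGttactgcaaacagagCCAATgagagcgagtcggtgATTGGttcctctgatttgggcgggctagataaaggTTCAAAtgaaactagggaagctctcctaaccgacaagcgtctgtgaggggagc
Cenpf: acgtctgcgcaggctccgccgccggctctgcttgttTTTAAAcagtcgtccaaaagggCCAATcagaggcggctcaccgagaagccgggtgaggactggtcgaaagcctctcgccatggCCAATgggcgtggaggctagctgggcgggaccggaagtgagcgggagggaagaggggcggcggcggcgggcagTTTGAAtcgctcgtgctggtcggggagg
Ttk: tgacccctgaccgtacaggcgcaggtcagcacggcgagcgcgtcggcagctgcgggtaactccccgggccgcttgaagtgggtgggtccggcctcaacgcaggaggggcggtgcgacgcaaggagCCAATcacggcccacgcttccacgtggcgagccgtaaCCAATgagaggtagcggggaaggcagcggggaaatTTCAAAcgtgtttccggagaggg
Hmmr: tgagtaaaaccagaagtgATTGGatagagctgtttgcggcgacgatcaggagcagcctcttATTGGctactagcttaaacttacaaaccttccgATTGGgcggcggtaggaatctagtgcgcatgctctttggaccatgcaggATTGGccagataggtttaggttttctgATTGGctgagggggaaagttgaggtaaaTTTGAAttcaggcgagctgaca
Mcm2: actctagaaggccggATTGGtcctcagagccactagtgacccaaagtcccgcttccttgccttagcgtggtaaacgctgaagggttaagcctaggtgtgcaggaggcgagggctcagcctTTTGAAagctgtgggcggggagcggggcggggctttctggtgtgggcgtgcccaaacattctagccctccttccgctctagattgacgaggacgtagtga
The last CHR-type match of Cenpe, Cenpf, Ttk and Hmmr began 15, 3, 8 and 9 bases after the start, and that of Top2a 23 bases before it (position -23). Mcm2 had 1 CHR-type match, at position -70. None of these 6 windows held the E2F-type letters, which says nothing about E2F binding there.

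The comparison of the lines asked whether loss of Nck1 and Nck2 went with a different level of cell cycle transcripts after differentiation. It showed small differences in both directions. Of the 47 genes 3 rose in the knockout, Mcm2 and Mcm5 of the replicative helicase and the checkpoint kinase gene Ttk, and 3 fell, the topoisomerase gene Top2a, the passenger kinase gene Aurkb and the centromeric histone gene Cenpa (limma, Benjamini-Hochberg adjusted p under 0.05 over all genes). That is 12.8% of the genes, against 12.0% of all genes tested (5.06% higher and 6.90% lower) and 23.5% of the 11392 genes with a mean above the background range. Of the 47 genes 33 lay above the background range in both lines, 11 within it in both (Cdc6, Cdt1, Gins1, Ccne1, Ccne2, E2f2, Cdc20, Bub1, Ttk, Birc5 and Nusap1) and 3 within it in the knockout only (Aurkb, Bub1b and Cenpa).

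The intervals were narrow, as they were for most genes on the array. The 95% confidence interval lay within 1 log2 unit, a 2-fold change, in either direction for all 47 genes, and within 0.5 for 41. Of all 30702 genes, 29750 had an interval within 1 and 25511 within 0.5. The estimates ran from -0.45 for Cenpe to 0.33 for Ttk. The median over replication genes was 0.02, with 13 of 23 above 0, and over mitosis genes -0.16, with 4 of 24 above 0. The median of all genes was 0.01, with 16867 of 30702 above 0. Of the 11392 genes above the background range, 5362 lay above 0. The difference between the replication and mitosis medians was not tested. The arrays of the lines did not overlap for 17 genes (36.2%), against 27.4% of all genes, 7 of them higher (12.6% of all genes) and 10 lower (14.8% of all genes). Among the 11392 genes above the background range they did not overlap for 5699, a larger share than among the 47 genes.

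**Figure D2:**
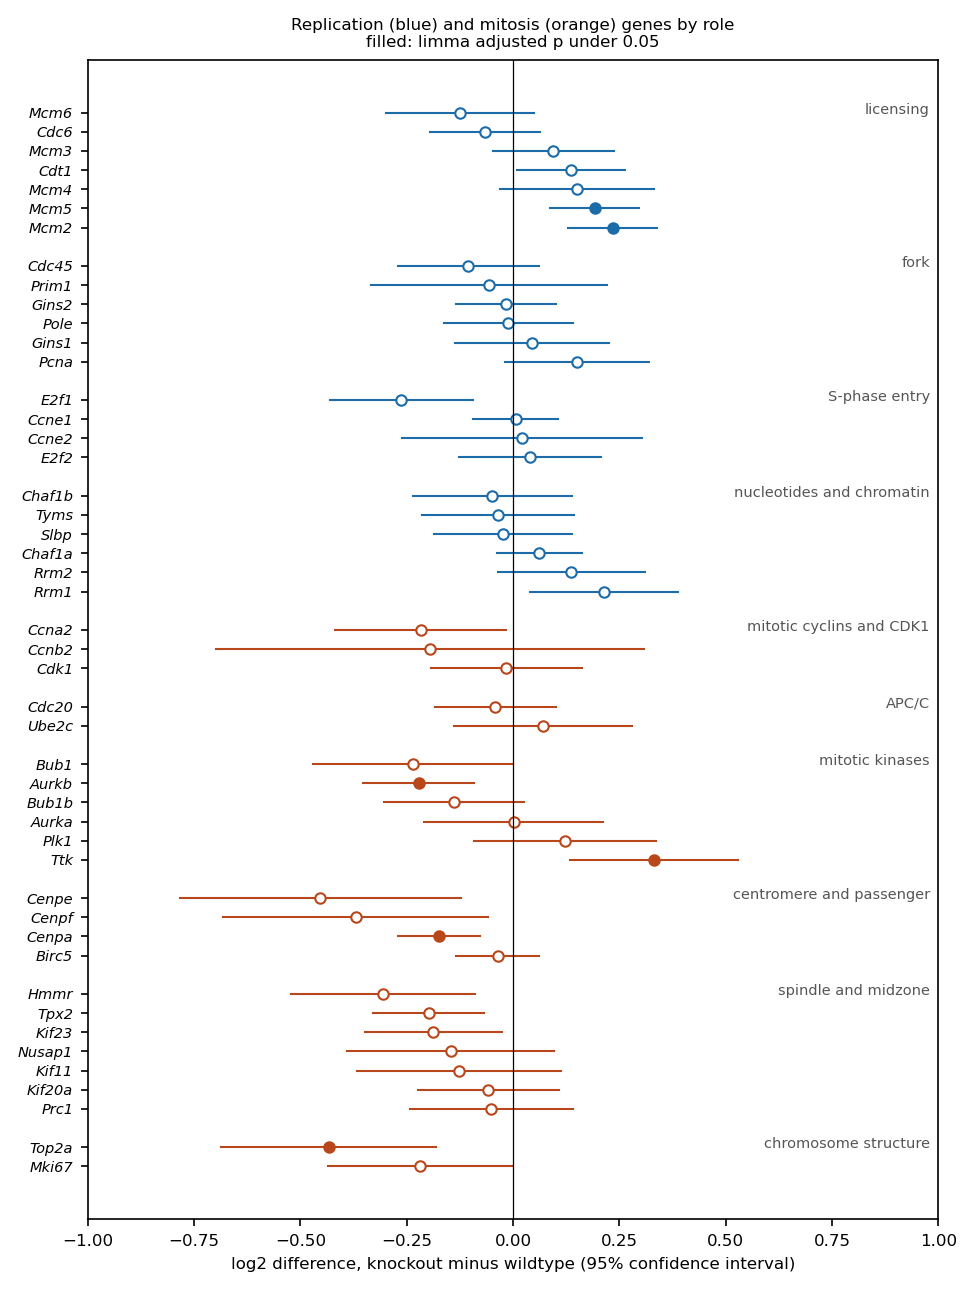
Log2 difference, knockout minus wildtype, with its 95% confidence interval (horizontal axis) for each of the 47 genes, ordered within roles, replication in blue and mitosis in orange. Filled points passed the limma test (6 genes), and 20 of 24 mitosis genes lie left of 0, against 13835 of all 30702 genes (not drawn).

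Among the licensing genes, which load the MCM helicase on origins, the values lay mostly above wildtype. Mcm2 (probe set TC0600002690.mm.1, chromosome 6) stood at 8.66, 8.70 and 8.62 in the wildtype arrays and at 8.89 in each knockout array. All knockout values lay above all wildtype values. Mcm2 rose by 0.23 (SE 0.04, limma adjusted p = 0.0176), and its 3 knockout values were identical, which RMA summaries can produce and which understates the spread. Mcm5 (TC0800000846.mm.1, chromosome 8), another helicase subunit, was at 7.83, 7.90 and 7.88 in wildtype and 8.05, 8.05 and 8.09 in knockout. It rose by 0.19 (SE 0.04, limma adjusted p = 0.0363), again without overlap. The other licensing genes did not pass, with estimates of 0.15 for Mcm4, 0.14 for the loading factor gene Cdt1, 0.09 for Mcm3, -0.07 for the loader gene Cdc6 and -0.13 for Mcm6 (95% interval -0.30 to 0.05).

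None of the 6 replication fork genes, the 4 S-phase entry genes or the 6 genes of nucleotide supply and chromatin assembly passed, and their estimates ran from -0.26 to 0.21. The lowest was E2f1, which encodes an activating E2F factor. Its wildtype arrays read 8.13, 8.15 and 7.94 and its knockout arrays 7.84, 7.84 and 7.75, with the knockout below wildtype throughout. The estimate was -0.26 (95% interval -0.43 to -0.10, limma adjusted p = 0.0616). The highest was Rrm1, the large subunit of ribonucleotide reductase, at 9.07, 9.29 and 9.30 in wildtype and 9.40, 9.45 and 9.45 in knockout. Its groups did not overlap, and the estimate was 0.21 (0.04 to 0.39, limma adjusted p = 0.13). Pcna, the sliding clamp of the replication fork, read 8.25, 8.44 and 8.47 in wildtype and 8.48, 8.56 and 8.57 in knockout, an estimate of 0.15 (-0.02 to 0.32) in which the lowest knockout value lay just above the highest wildtype value. E2f1 and Rrm1 stood on opposite sides of 0 among genes of the same phase.

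Of the mitosis roles, chromosome structure and the centromere had the lowest median differences between lines, at -0.33 and -0.27. Top2a (TC1100003693.mm.1, chromosome 11), which untangles sister chromatids, read 9.06, 9.22 and 9.24 in wildtype and 8.83, 8.87 and 8.53 in knockout. The lines did not overlap, and knockout replicate 3 was the lowest array. Top2a changed by -0.43 (SE 0.10, limma adjusted p = 0.0458). Cenpa (TC0500000298.mm.1, chromosome 5), the histone variant that marks centromeres, read 7.87 in every wildtype array and 7.71, 7.69 and 7.69 in knockout, a change of -0.17 (SE 0.04, limma adjusted p = 0.0377) that rests on identical wildtype values. Aurkb (TC1100000892.mm.1, chromosome 11), the kinase of the chromosomal passenger complex, read 7.95 in all wildtype arrays and 7.68, 7.67 and 7.82 in knockout. It changed by -0.22 (SE 0.05, limma adjusted p = 0.0464), with the knockout mean within the background range.

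Cenpe, the kinetochore motor, had the largest estimate of all 47 genes without passing. It read 8.72, 9.10 and 8.99 in wildtype and 8.43, 8.71 and 8.30 in knockout, an estimate of -0.45 (95% interval -0.78 to -0.12, limma adjusted p = 0.0932). Its lowest wildtype array, replicate 1, lay just above its highest knockout array, replicate 2. Cenpf, a large kinetochore protein, read 8.53, 8.78 and 8.67 against 8.27, 8.54 and 8.06, with an overlap between wildtype replicate 1 and knockout replicate 2 and an estimate of -0.37 (-0.68 to -0.06, limma adjusted p = 0.141). Hmmr, a spindle assembly factor, read 8.78, 9.02 and 9.00 against 8.54, 8.76 and 8.58, an estimate of -0.31 (-0.52 to -0.09, limma adjusted p = 0.0862). In these 3 genes, as in Top2a, wildtype replicate 1 was the lowest of its line.

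Ttk, the kinase that starts the spindle checkpoint, went the other way. Ttk (TC0900001101.mm.1, chromosome 9) read 7.03, 7.31 and 7.24 in wildtype and 7.48, 7.57 and 7.53 in knockout. It rose by 0.33 (SE 0.08, limma adjusted p = 0.0494) without overlap, both means lying within the background range. Ccna2, the cyclin of S and G2 phase, read 9.28, 9.44 and 9.46 in wildtype and 9.07, 9.14 and 9.32 in knockout, an estimate of -0.22 (-0.42 to -0.02, limma adjusted p = 0.181) with overlap. Ube2c, the E2 enzyme of the anaphase-promoting complex, read 9.15, 9.13 and 9.21 against 9.18, 9.10 and 9.42, an estimate of 0.07 (-0.14 to 0.28) with overlap. Mki67, the proliferation marker Ki-67, was taken up after its values were seen. It read 10.49, 10.71 and 10.69 in wildtype and 10.37, 10.55 and 10.31 in knockout, above the background range on every array, with an estimate of -0.22 (-0.44 to -0.003) that did not pass.

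**Figure D3:**
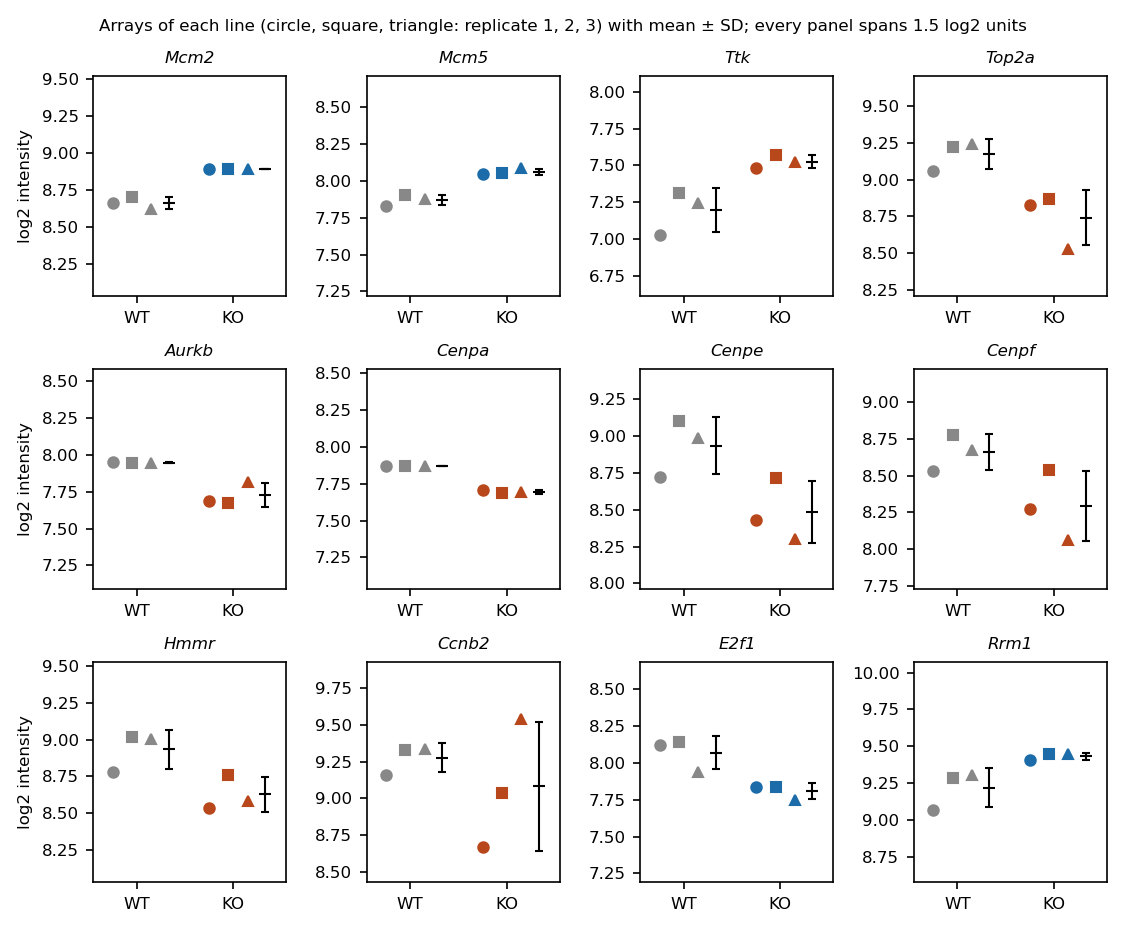
Log2 intensity (vertical axis) of 12 genes in the 3 arrays of each line (WT, wildtype; KO, knockout), symbols marking the replicate number, with mean and SD beside them. Every panel spans the same range of log2 units. Mcm2, Mcm5 and Ttk lie higher and Top2a, Aurkb and Cenpa lower in knockout without overlap, and Ccnb2 spans 8.67 to 9.54 within the knockout line.

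These 6 calls stood close to the threshold. Without wildtype replicate 1, 8 of the 47 genes passed, 4 of them among the 6 (Mcm2, Mcm5, Ttk and Cenpa) together with Cdt1, Hmmr, Mcm6 and Tpx2. Without wildtype replicate 2 the same 4 of the 6 passed and no other gene. Without wildtype replicate 3 E2f1 alone passed, and without knockout replicate 3 Aurkb alone. Without knockout replicate 1 or 2 the limma count was 0, with 12 and 15 genes at an unadjusted p under 0.05. Top2a passed in 0 of these 6 fits. The number of all genes that passed also differed between these fits, and its range is given in the closing section. With the arrays shifted to one median 0 of 47 passed, against 9.3% of all genes (12.0% without the shift). In that fit 12 of the 47 had an unadjusted p under 0.05, and limma adjusted p ran from 0.0687 to 0.152 for the 6 genes. No direction of the 6 changed in any alternative run.

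The wildtype replicates differed in a shared direction across many of these genes. Wildtype replicate 1 was the lowest wildtype array for 33 of the 47 genes (70.2%), against 29.2% of all genes and 37.0% of the 19665 genes within the same range of mean levels (6.36 to 10.52). For mitosis genes it was the lowest for 20 of 24 and for replication genes for 13 of 23. Wildtype replicates 2 and 3 stood above it by a median of 0.17 and 0.18 over the mitosis genes, next to the median of -0.16 between lines. After all arrays were quantile-normalized again, it was the lowest for 35 of the 47 genes, against 38.4% of all genes. On that scale wildtype replicates 2 and 3 stood above it by a median of 0.083 and 0.145 over the mitosis genes, and the median between lines was -0.15. As deposited, its median over all genes was the highest of the 6 arrays, and the part of array level in this pattern was not tested.

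In the knockout line, replicate 1 was the lowest for 25 of 47 genes (28.1% of all genes) and replicate 2 the highest for 23 (31.1% of all genes). After renewed quantile normalization, knockout replicate 1 was the lowest for 19 of 47 (34.4% of all genes) and replicate 3 for 21 (34.9% of all genes), so which knockout array was most often the lowest depended on the scaling. Knockout replicate 2 was the highest for 23 of 47 on that scale too (35.9% of all genes). Set against single wildtype arrays, knockout replicate 1 lay below wildtype replicate 3 for 23 of 24 mitosis genes and knockout replicate 2 for 22, but against wildtype replicate 1 they lay below for 17 and 11. Knockout replicate 3 lay below wildtype replicates 2 and 3 for 19 of 24 each and below wildtype replicate 1 for 12. Over all 30702 genes, knockout replicates 1, 2 and 3 lay below wildtype replicate 1 for 18495, 18364 and 18673 genes. They lay below wildtype replicate 2 for 11128, 10569 and 10428 genes and below wildtype replicate 3 for 12449, 12759 and 12469. The median over mitosis genes against wildtype replicate 1 was -0.07, 0.007 and -0.013 for knockout replicates 1, 2 and 3, against -0.25, -0.14 and -0.14 for the same arrays set against wildtype replicate 3. Over all genes the medians were -0.04, -0.04 and -0.05 against wildtype replicate 1, and 0.00 for each against wildtype replicate 3. Without wildtype replicate 1 the mitosis median was -0.22, and without either of the other wildtype arrays it was -0.14.

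Knockout replicate 3 was the lowest knockout array for 9 of 24 mitosis genes (37.5%, against 28.0% of all genes). It was the highest for another 9 (37.5%, against 31.4% of all genes). Ccnb2, the cyclin B2 partner of CDK1, had the largest spread of the 47 genes, at 8.67, 9.04 and 9.54 in knockout (SD 0.44) and 9.16, 9.33 and 9.34 in wildtype (SD 0.10). Its highest and lowest values of all 6 arrays both lay in the knockout line. The estimate of -0.20 (95% interval -0.70 to 0.31) was accordingly wide. Replicate 3 was also the highest knockout array for Plk1, the polo-like mitotic kinase, at 8.89, 9.07 and 9.22, and for Ube2c, while it was the lowest for Top2a, Cenpe and Cenpf (Plk1 was named after its values were seen). In wildtype the largest spreads were in the primase gene Prim1, at 7.63, 8.05 and 8.01 (SD 0.23; 7.80, 7.90 and 7.81 in knockout), and the cyclin gene Ccne2, at 6.99, 7.38 and 7.34 (SD 0.21; 7.23, 7.38 and 7.16 in knockout). In both, replicate 1 was the low array and the estimate between lines was near 0, at -0.06 and 0.02. The median SD of the 47 genes was 0.10 in wildtype and 0.08 in knockout, against 0.10 and 0.06 for all genes and 0.07 in each line for all genes above the background range.

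**Figure D4:**
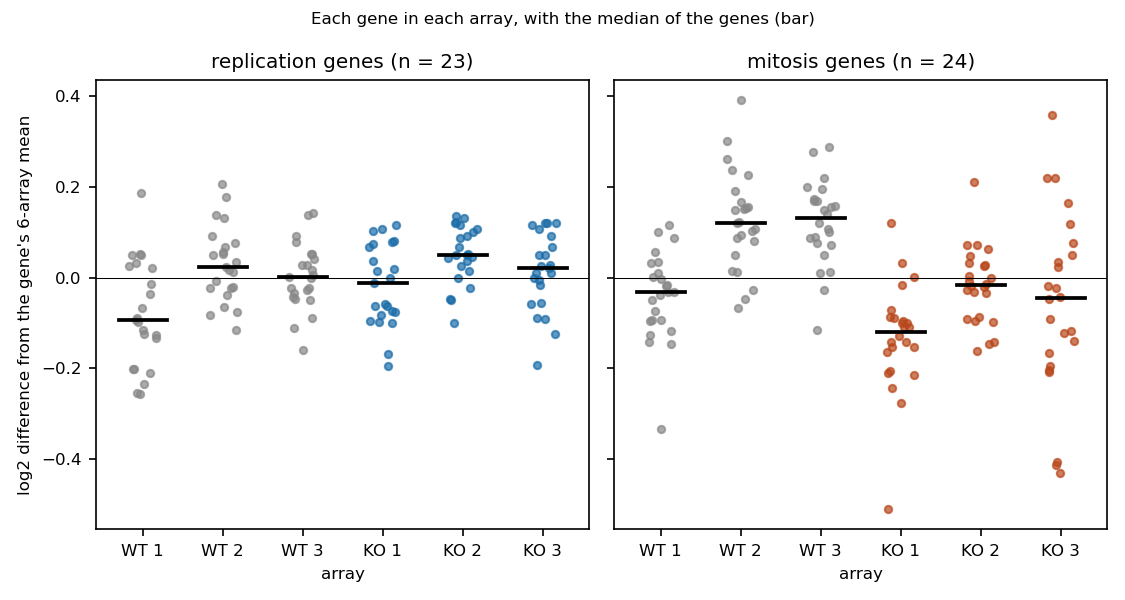
Log2 difference of each gene from its own mean over the 6 arrays (vertical axis), by array (WT, wildtype; KO, knockout), for 23 replication and 24 mitosis genes, the bar being the median. Among mitosis genes wildtype replicates 2 and 3 stand highest (0.12 and 0.13), wildtype replicate 1 (-0.03) lies with knockout replicates 2 and 3 (-0.02 and -0.04), and knockout replicate 1 is lowest (-0.12).

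Of 58 measured replication genes in 3 other lists, 3 rose, 1 fell and 54 did not pass, with a median of 0.01. The 4 that passed are 6.90% of the list, below the 12.0% of all genes. Wdhd1, which ties the helicase to DNA polymerase alpha, read 7.24, 7.31 and 7.37 in wildtype and 7.71, 7.71 and 7.66 in knockout. It rose by 0.39 (SE 0.05, limma adjusted p = 0.00413) and passed in all 15 alternative fits. Orc6, of the origin recognition complex, rose by 0.20 and the polymerase epsilon subunit gene Pole3 by 0.19, while its partner subunit gene Pole4 fell from 8.20, 8.41 and 8.38 to 7.89, 8.02 and 7.89 (-0.39, SE 0.07, limma adjusted p = 0.0181). Orc6 passed in 7, Pole3 in 9 and Pole4 in 11 of the 15 alternative fits. None of 12 genes of nucleotide supply and S-phase chromatin passed. The lowest p values belonged to the maintenance methyltransferase gene Dnmt1, with a log2 difference of 0.13 (limma adjusted p = 0.177), and the chromatin remodeller gene Hells, with a log2 difference of 0.30 (limma adjusted p = 0.262).

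Of 80 measured mitosis genes in 3 other lists, 4 rose, 5 fell and 71 did not pass. The median was -0.07, and 61 of the 80 had an estimate below 0. Of all 30702 genes 13835 lay below 0, as did 6030 of the 11392 above the background range. Those that passed are 11.2% of the list, near the 12.0% of all genes. Aspm, a spindle pole protein gene, read 7.92, 8.32 and 8.20 in wildtype and 7.42, 7.61 and 7.23 in knockout. It changed by -0.72 (SE 0.13, limma adjusted p = 0.017), and the knockout values lay below the wildtype ones throughout. Nuf2, of the NDC80 kinetochore complex, changed by -0.44 (limma adjusted p = 0.0159), and Iqgap3, a cytokinesis scaffold gene, by -0.21 (adjusted p = 0.0494). The kinetochore gene Zwint rose by 0.39, the checkpoint gene Bub3 by 0.31 and the E2 enzyme gene Ube2s by 0.18 (limma adjusted p from 0.00903 to 0.0494). Gtse1, a microtubule-binding protein of G2 and S phase, rose from 8.32, 8.20 and 8.28 to 8.72, 8.75 and 8.83 (0.50, SE 0.06, limma adjusted p = 0.00249), and passed in all 15 alternative fits. Bub3 passed in 14 of these fits, Nuf2 in 12, Aspm in 11, Zwint in 10, Iqgap3 in 6 and Ube2s in 6. Wildtype replicate 1 was the lowest wildtype array for 63 of these 80 genes, as it was for 38 of the 58 replication genes.

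Among 15 measured genes of the RB, E2F and DREAM system 1 fell and none rose (6.67%, against 12.0% of all genes). Rbl2, which encodes the pocket protein p130, read 9.77, 9.99 and 9.85 in wildtype and 9.42, 9.48 and 9.48 in knockout (-0.41, SE 0.07, limma adjusted p = 0.00979). E2f5, which encodes an E2F factor that binds pocket proteins, had an estimate of -0.35 that did not pass (adjusted p = 0.0708). Of 12 measured CDK inhibitors, D-type cyclins and their kinases, the inhibitor gene Cdkn2c rose by 0.50 (limma adjusted p = 0.0117), the cyclin gene Ccnd2 changed by -0.31 (adjusted p = 0.0303), and 10 did not pass. Those that passed are 16.7% of that list. Clustered histone genes, most of whose transcripts are made in S phase and bound by the product of Slbp, were read through 27 probe sets of 1 gene each, 20 of them within the background range in both lines. Only the linker histone gene H1f2 changed (-0.19, limma adjusted p = 0.0335), which is 3.70% of the histone list. The next was H2bc18, with a log2 difference of -0.28 (limma adjusted p = 0.0704), and near-identical histone copies can share probes. Slbp had an estimate of -0.02 (95% interval -0.19 to 0.14). Of the 15 alternative fits, Rbl2 passed in 14, Cdkn2c in 12, Ccnd2 in 9 and H1f2 in 8.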

How the data were processed

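Log2 intensities per probe set were made by the authors from the arrays by RMA, and the submitters' processing notes name affy 1.44.0; which probe definition file or filter they used is not stated. The deposited log2 values were used as they stand. Probe sets were named through the platform annotation, with symbols updated through the synonyms of a RefSeq table of GRCm38.p6 (used for names, chromosomes and promoter sequences). Of 32750 probe sets with a symbol, 31258 named 1 gene and 1492 several, which were not used. The probe set with the highest mean was kept for each of 441 genes with more than 1, leaving 30702 genes.

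Knockout was compared with wildtype with limma 3.58.1 in R 4.3.3 (lmFit, eBayes, two-sided, no filter, no covariate), with Benjamini-Hochberg adjustment over all 30702 genes at 0.05. Errors are limma standard errors or SDs over 3 arrays. The number of arrays limits the precision: on simulated data for this comparison over 30702 genes, a shift of 0.5 log2 units was recovered in 49.3% of shifted genes, a shift of 1 in 94% and a shift of 2 in 98.5%, with 9 false calls. The simulation shifted 67, 67 and 66 genes by these sizes and drew every value independently. In the data 12.0% of all genes passed and genes moved together within arrays, so these rates need not hold there. The 23 background probe sets had means up to 7.78, and a gene at or below that is not shown to be silent.

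The genes and lists were chosen with earlier results of these data known. Values in every array are given for genes that passed, for the gene with the largest difference in each role and for the 4 with the largest SD within a line. From each other list, up to 3 genes with the largest change among those that passed are named, or the 2 with the smallest p where fewer than 2 passed. Promoters follow the order of the largest differences, without genes on chromosome 18. Other names were chosen after their values were seen. Alternatives covered array scaling, a filter on dim genes, the variance model, array weights, the replicate number as a block, the mean over probe sets, chromosome medians, genes with identical values and each array left out. Python 3.11.15 and matplotlib 3.10.9 made the plots.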

Additional observations from a re-analysis of the deposited data

How the results depend on the processing

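The count of 6 of 47 genes (12.8%, against 12.0% of all genes) stayed at 6 under an intensity trend with robust variance, the mean over probe sets and renewed quantile normalization, where Rrm1 passed and Ttk did not (14.7% of all genes), and was 4 with the replicate block (12.3% of all genes). It became 0 of 47 with arrays shifted to one median (9.3% of all genes), 10 of 44 with only genes at or above the median level (22.7%, against 27.1% of those genes), for which fewer genes are tested, 3 of 47 with chromosome medians taken off (11.8% of all genes), 2 of 44 without genes identical within a line (13.1% of all genes), where Mcm2 and Cenpa drop out by construction, and 25 of 47 with array weights (53.2%, against 33.1% of all genes). At an unadjusted p under 0.05, as reported, 17 of 47 passed (36.2%, against 23.1% of all genes). The share was 42.8% among the 11392 genes with a mean above the background range. The causes of the other moves were not tested. The array weights gave wildtype replicate 3 a weight of 54.67 and called 10171 of all genes, against 3669 as reported, so passes under them alone are not used. With each array left out in turn the counts ran from 0 to 8 of the 47 genes and from 2079 to 3388 of all genes. The replicate block called Cenpe, E2f1, Hmmr and Ttk. Deviations from the line means correlated across genes at 0.35, 0.28 and 0.04 for replicate numbers 1, 2 and 3, and 5 of 6 arrays correlated best with their own number, a hint from the data; the labels call the replicates independent, and the block is not relied on. Signs turned, in genes that did not pass, for Ube2c (-0.014 with array weights, from -0.022 to 0.14 with each array left out), Ccne2 (-0.063 with array weights, from -0.10 to 0.092 with each array left out), Prim1 (from -0.19 to 0.019 with each array left out) and Ccnb2 (from -0.42 to 0.011 with each array left out). The CHR-type motif as TTTGAA alone was in 20 of 43 windows, against 26.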

Other observations

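The genes were also set side by side by promoter motif, a grouping made after their values were seen. The 21 measured genes with a CHR-type and no E2F-type match (4 replication and 17 mitosis genes) had a median log2 difference, knockout minus wildtype, of -0.11, with 14 below 0, and ran from Cenpe at -0.45 to Ttk at 0.33. Of all 30702 genes, 13835 lay below 0. The 5 genes with an E2F-type and no CHR-type match, Cdc6, Cdt1, Mcm3, Mcm6 and Tyms, all of replication, had a median of -0.03 and ran from -0.13 to 0.14. Mcm5, Cdk1 and E2f2, with both motifs, had a median of 0.04, and the 9 genes with neither had a median of -0.05. Mcm2, which rose, carried the CHR-type and not the E2F-type letters. These groups were not tested against each other.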
